A study of Mus musculus with 12 samples.

Results

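The amino acid supply and tRNA charging genes are a set of 46 genes, taken by gene name from the count and FPKM tables of MIN6 cells, out of 54022 genes in all. Each of the 46 names matched 1 row in both tables, and all 46 were among the 16222 genes with enough counts to be tested. MIN6 is a mouse insulinoma line that secretes insulin, and the labels give its genotype as WT. The 4 conditions were vehicle or TMAO (trimethylamine N-oxide, a metabolite made from dietary choline, at 100 nM for 18 h), each followed by low or by high glucose, with 3 libraries each and 12 in all. RNA-seq was performed to follow how TMAO acts on these cells when glucose is low or high. All libraries came from this 1 line in culture, a tumour-derived model of the beta cell, and the study calls the libraries of a condition independent samples of cells. No source used here says whether libraries of the same number share a day, and the p-values measure the spread between these libraries.

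Cells take up amino acids through membrane carriers, make others from glucose carbon and from each other, and load each amino acid onto its tRNA with a dedicated aminoacyl-tRNA synthetase. Many genes of these steps are known targets of the transcription factor ATF4, whose translation rises when uncharged tRNA or misfolded protein leads to phosphorylation of eIF2alpha, the integrated stress response. Beta cells make large amounts of secreted protein, and several amino acids also act as signals for insulin release. The 46 genes comprised 16 enzymes, 10 amino acid transporters and 20 cytosolic tRNA synthetase genes. The enzymes were 8 of serine, glycine and one-carbon metabolism (Phgdh, Psat1, Psph, Shmt1, Shmt2, Mthfd1, Mthfd2, Aldh1l2), 5 that make asparagine, proline, alanine or a creatine precursor (Asns, Aldh18a1, Pycr1, Gpt2, Gatm) and 3 of transsulfuration and glutathione breakdown (Cbs, Cth, Chac1). Of the synthetase genes, 8 encode proteins that sit in the multisynthetase complex (Dars, Eprs, Iars, Kars, Lars, Mars, Qars, Rars) and 12 encode enzymes outside it (Aars, Cars, Farsa, Farsb, Gars, Hars, Nars, Sars, Tars, Vars, Wars, Yars).

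Library totals lay between 16793162 and 22340542 counted fragments, and the biological coefficient of variation between libraries of a condition was 5.34%. The beta cell identity of the line was checked on 9 markers, and all 9 were expressed in every library, from Slc2a2, the glucose transporter (62.6 to 72.6 FPKM), up to Ins2. Of 4 markers of other islet cells, Gcg was at 200 to 227 FPKM, and the summed level of the 4 was 201 to 218 FPKM in low glucose and 224 to 230 FPKM in high glucose. The summed levels of the exocrine (5 genes), blood and vessel (4 genes) and fibroblast (3 genes) markers never exceeded 1.49, 0.131 and 0.521 FPKM, and in each of these 3 lists 2 genes were at 0 in all libraries. In high glucose, averaged over treatments, 3 of the 9 beta cell markers rose and 8 of 9 were positive, where 4.13% of all tested genes rose and 50.4% were positive: the log2 fold change was 0.54 for the insulin gene activator Mafa (adjusted p = 0.00264, edgeR), 0.095 for Slc2a2 (adjusted p = 0.0478) and 0.092 for Iapp (adjusted p = 0.0413), and Gcg rose by 0.11 (adjusted p = 0.0102). The part of these markers in the results was not tested. In bulk RNA, fewer cells of a type and less RNA per cell cannot be told apart.

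Most of the 46 genes were expressed well above the typical gene of these cells. Levels are given as FPKM, the authors' measure of fragments scaled to gene length and library total, which allows genes of different length to be compared. The median of the 46 mean levels was 27.4 FPKM, against 5.24 FPKM for all tested genes, and 39 of the 46 lay above the latter. Slc7a5, the light chain of the leucine carrier LAT1, had the highest level, from 140.1 to 174 FPKM over the 12 libraries. It was followed by Chac1, which degrades glutathione and is a classical ATF4 target (119 to 136 FPKM), and by Gars, the glycyl-tRNA synthetase (115 to 131 FPKM). Slc3a2, the heavy chain that pairs with Slc7a5 and other light chains, spanned 98.9 to 133 FPKM, and Nars, the asparaginyl-tRNA synthetase, 99.0 to 116 FPKM. Only Slc7a5 stood clear of the rest at the top, since the ranges of Chac1 and Gars, of Gars and Slc3a2 and of Slc3a2 and Nars overlapped. Over the whole order of 46, 39 of the 45 pairs of neighbours had overlapping ranges.

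The lowest levels were those of Slc6a9, a glycine transporter (0.791 to 1.75 FPKM), Cth, the last enzyme of transsulfuration (1.31 to 1.80 FPKM), Slc1a5, a neutral amino acid exchanger (1.79 to 2.48 FPKM), Gatm, which makes the creatine precursor guanidinoacetate (1.48 to 3.88 FPKM), and Slc38a1, a glutamine carrier (2.54 to 3.55 FPKM). Cbs and Cth, both of transsulfuration, lay far apart in level, with Cbs, its first enzyme, at 70.9 to 78.6 FPKM and Cth at under 2 FPKM in every library. The mean levels of the 20 synthetases ran from 10.5 FPKM for Qars to 123 FPKM for Gars, with a median of 31.2 FPKM. The medians were 26.5 FPKM for the 8 in the complex and 44.2 FPKM for the 12 outside it. The 10 transporters held both ends of the order, with a median of 10.2 FPKM, and the 8 serine and one-carbon enzymes ran from 7.16 FPKM (Psph) to 65.8 FPKM (Mthfd2).

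**Figure D1:**
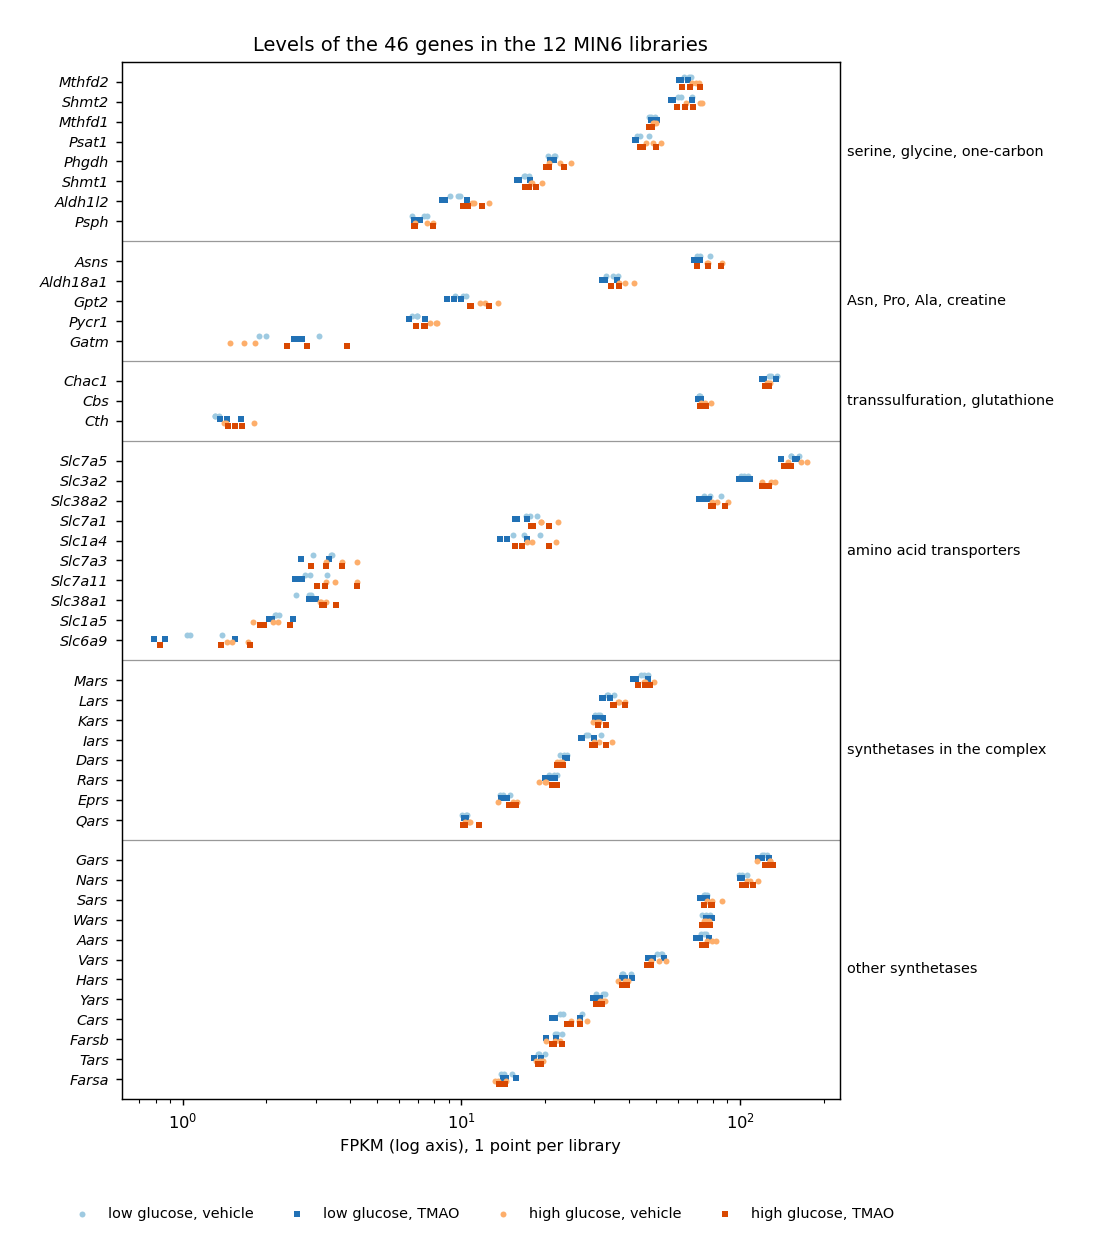
FPKM (log axis) of the 46 genes, 1 point for each of the 12 libraries, grouped by role and coloured by condition. Most genes keep to a narrow band over all 12 libraries, and the order runs from Slc7a5 at 140.1 to 174 FPKM down to Slc6a9 at 0.791 to 1.75 FPKM.

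The promoters of several of these genes carried the C/EBP-ATF response element, the site that ATF4 binds with a C/EBP partner. RefSeq promoter windows (GRCm38.p6, 250 bases before the start of the gene and 50 bases after it) were matched for 32 of the 46 genes. Matching was by symbol or, failing that, by Ensembl identifier. The letters TGATGNAA, searched on both strands, were found for 10 of these 32 (31.2%): Aars, Asns, Chac1, Gars, Iars, Pycr1, Slc1a4, Slc7a11, Tars and Yars. Of the 27025 genes with a promoter in the table, 4.51% held them, and of the 32851 promoters 3.97%. The cAMP response element TGACGTCA was in 0 of the 32 windows and in 2.03% of all genes, and the E-box CACGTG was in 6 of the 32 (Aars, Aldh18a1, Cbs, Farsb, Iars, Tars) and in 8.09% of all genes. A match is a description of letters and not a bound site, and the genes with no matched window were Aldh1l2, Cth, Slc7a3, Slc7a5, Slc38a1, Slc1a5, Lars, Mars, Rars, Cars, Hars, Nars, Vars and Wars.

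Stretches of 30 bases around the element are shown for 5 genes: Chac1 and Gars, near the top of the levels, Pycr1 and Slc7a11, which were higher in high glucose, and Asns, a textbook ATF4 target. Each is written 5′ to 3′ in the direction of the element, with TGATGNAA in capitals, and the distance given is that between the element and the start of the gene in RefSeq.
Asns, chr6:7693214-7693243, minus strand, 15 bases before the start: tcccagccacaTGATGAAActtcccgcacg
Chac1, chr2:119351038-119351067, minus strand, 185 bases before the start: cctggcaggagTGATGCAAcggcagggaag
Gars, chr6:55037960-55037989, minus strand, 22 bases before the start: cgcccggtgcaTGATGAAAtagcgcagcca
Pycr1, chr11:120643833-120643862, minus strand, 95 bases before the start: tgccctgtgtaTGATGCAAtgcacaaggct
Slc7a11, chr3:50443642-50443671, plus strand, 39 bases before the start: gggctgcatgaTGATGCAAattctccaggt
Slc7a11, chr3:50443661-50443690, minus strand, 58 bases before the start: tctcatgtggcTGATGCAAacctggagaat
Asns and Gars shared the form TGATGAAA and the other 3 genes the form TGATGCAA, and Slc7a11 held the element on both strands, facing each other.

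High glucose against low glucose was compared first within each treatment, on counts. With vehicle, 2 of the 46 genes rose and 0 fell past an adjusted p of 0.05 (quasi-likelihood F test of edgeR, Benjamini-Hochberg adjusted over all tested genes), where 3.3% of all tested genes were called, 1.99% as higher and 1.31% as lower. With TMAO the same 2 genes, Slc3a2 and Gpt2, rose and 0 fell, where 3.64% of all tested genes were called, 2% as higher and 1.64% as lower. Leaving out 1 library gave 1 to 2 called genes with vehicle and 1 to 4 with TMAO, where the 4 came without low glucose TMAO replicate 3, and with no filter on low counts 6 (5 higher and Gatm lower) and 5 (all higher) were called. The share of all genes called in each of these fits is not given, so these counts cannot be set against the shares above. The changes were small and mostly upward. The log2 fold change was positive for 35 of the 46 genes with vehicle, with a median of 0.094, and for 37 with TMAO, with a median of 0.068. Over all tested genes, 50.7% and 50.4% were positive, with medians of 0.0021 and 0.0012. The vehicle and TMAO comparisons share no library, and 32 of the 46 genes were positive in both, 6 negative in both and 8 of opposite sign, so that 82.6% had the same sign against 63.3% of all tested genes. The 46 genes varied together between libraries (median pair correlation 0.306 after removing condition means), so their signs are not independent.

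Slc3a2 encodes the heavy chain (CD98) that brings the leucine and cystine carriers to the cell surface, and lies at chr19:8706882-8723369 on the minus strand (mm10). Its levels in low glucose were 107, 101 and 103 FPKM with vehicle and 103, 98.9 and 108 FPKM with TMAO. In high glucose they were 129, 119.8 and 133 FPKM with vehicle and 127, 120.1 and 125 FPKM with TMAO. All 6 libraries in high glucose lay above all 6 in low glucose. Its counts gave a log2 fold change of 0.30 (SE 0.046, adjusted p = 5.73e-05, edgeR) with vehicle and 0.26 (SE 0.046, adjusted p = 0.000363) with TMAO, rises of 22.8% and 19.8%.

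Gpt2, the mitochondrial alanine aminotransferase at chr8:85492576-85527560 on the plus strand, links pyruvate and glutamate to alanine. In low glucose it was at 10.4, 9.51 and 10.1 FPKM with vehicle and 9.41, 8.90 and 9.95 FPKM with TMAO, and in high glucose at 12.1, 11.6 and 13.5 FPKM with vehicle and 10.9, 10.7 and 12.6 FPKM with TMAO. Again every library in high glucose was above every library in low glucose. In high glucose it rose on the log2 scale by 0.31 (SE 0.066, adjusted p = 0.00343, edgeR) with vehicle and 0.27 (SE 0.066, adjusted p = 0.0139) with TMAO. The call was lost with vehicle without low glucose replicate 2 (adjusted p = 0.0525) or high glucose replicate 3 (0.068), and with TMAO without low glucose replicate 1 (0.0539), low glucose replicate 2 (0.0677) or high glucose replicate 3 (0.178). With limma on log2(FPKM + 1), the adjusted p was 0.0773 with vehicle and 0.133 with TMAO.

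Averaging the glucose difference over both treatments uses all 12 libraries and gives the smallest errors. In this comparison 9 of the 46 genes rose and 0 fell, where 8.19% of all tested genes were called, 4.13% as higher and 4.06% as lower. The 9 were 4 transporters (Slc3a2, Slc7a1, Slc38a1, Slc7a11), 2 enzymes of serine and one-carbon metabolism (Psat1, Aldh1l2), 2 enzymes of alanine and proline synthesis (Gpt2, Pycr1) and 1 synthetase (Lars). Slc3a2 rose by 0.28 on the log2 scale (SE 0.032, adjusted p = 1.91e-07, edgeR) and Gpt2 by 0.29 (SE 0.047, adjusted p = 4.94e-05). With 1 library left out, between 5 (without low glucose vehicle replicate 2) and 16 (without low glucose TMAO replicate 3) of the 46 genes were called. For those fits the share of all tested genes called is not given. With limma on FPKM, 4 of the 9 passed the threshold, Slc3a2, Gpt2, Aldh1l2 and Lars. On log2(FPKM + 1), limma called 492 of 19549 genes as higher and 440 as lower. Of all 46 genes, 36 were positive with a median of 0.081, against 50.4% and 0.0011 for all tested genes.

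Among the transporters, Slc7a1 carries arginine and lysine and lies at chr5:148327410-148399904 on the minus strand. It measured 17.6, 17.05 and 18.7 FPKM in low glucose with vehicle and 15.9, 15.5 and 17.2 FPKM with TMAO, against 19.3, 19.4 and 22.2 FPKM in high glucose with vehicle and 18.1, 17.7 and 20.6 FPKM with TMAO. The glucose levels did not overlap within either treatment, and the averaged log2 fold change was 0.20 (SE 0.044, adjusted p = 0.00437, edgeR).

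Slc38a1, a sodium-coupled glutamine carrier at chr15:96571418-96642913 on the minus strand, was at 2.90, 2.54 and 2.84 FPKM in low glucose with vehicle and 2.90, 2.85 and 3.01 FPKM with TMAO. In high glucose it was at 3.10, 3.26 and 3.13 FPKM with vehicle and 3.16, 3.55 and 3.23 FPKM with TMAO, above all 6 low glucose libraries. The averaged log2 fold change was 0.19 (SE 0.051, adjusted p = 0.0139, edgeR), and the call was lost without low glucose vehicle replicate 2 (0.0685) or high glucose TMAO replicate 2 (0.0687).

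Slc7a11, the cystine and glutamate exchanger xCT, at chr3:49892526-50443614 on the minus strand, also pairs with the Slc3a2 heavy chain. Its levels were 2.75, 2.87 and 3.29 FPKM in low glucose with vehicle, 2.56, 2.54 and 2.69 FPKM in low glucose with TMAO, 3.26, 3.53 and 4.23 FPKM in high glucose with vehicle and 3.03, 3.24 and 4.23 FPKM in high glucose with TMAO. The treatments differed in overlap: with TMAO the glucose levels stood apart, and with vehicle 1 low glucose library (3.29 FPKM) was above 1 high glucose library (3.26 FPKM). The averaged log2 fold change of 0.37 (SE 0.094, adjusted p = 0.0389, edgeR) was the largest of the 9, and leaving out any of 6 single libraries raised the adjusted p past the threshold, to between 0.0801 and 0.104.

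The other 6 transporters did not pass this test. Slc38a2, a glutamine and alanine carrier known to be raised by amino acid shortage, had an averaged log2 fold change of 0.12 (95% CI 0.036 to 0.20, adjusted p = 0.0719, edgeR), and passed with no filter on low counts (0.0152). Slc1a5 was at -0.087 (95% CI -0.26 to 0.087), the only one of the 10 below 0. The median of the 10 transporters was 0.19, and 9 of 10 were positive.

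**Figure D2:**
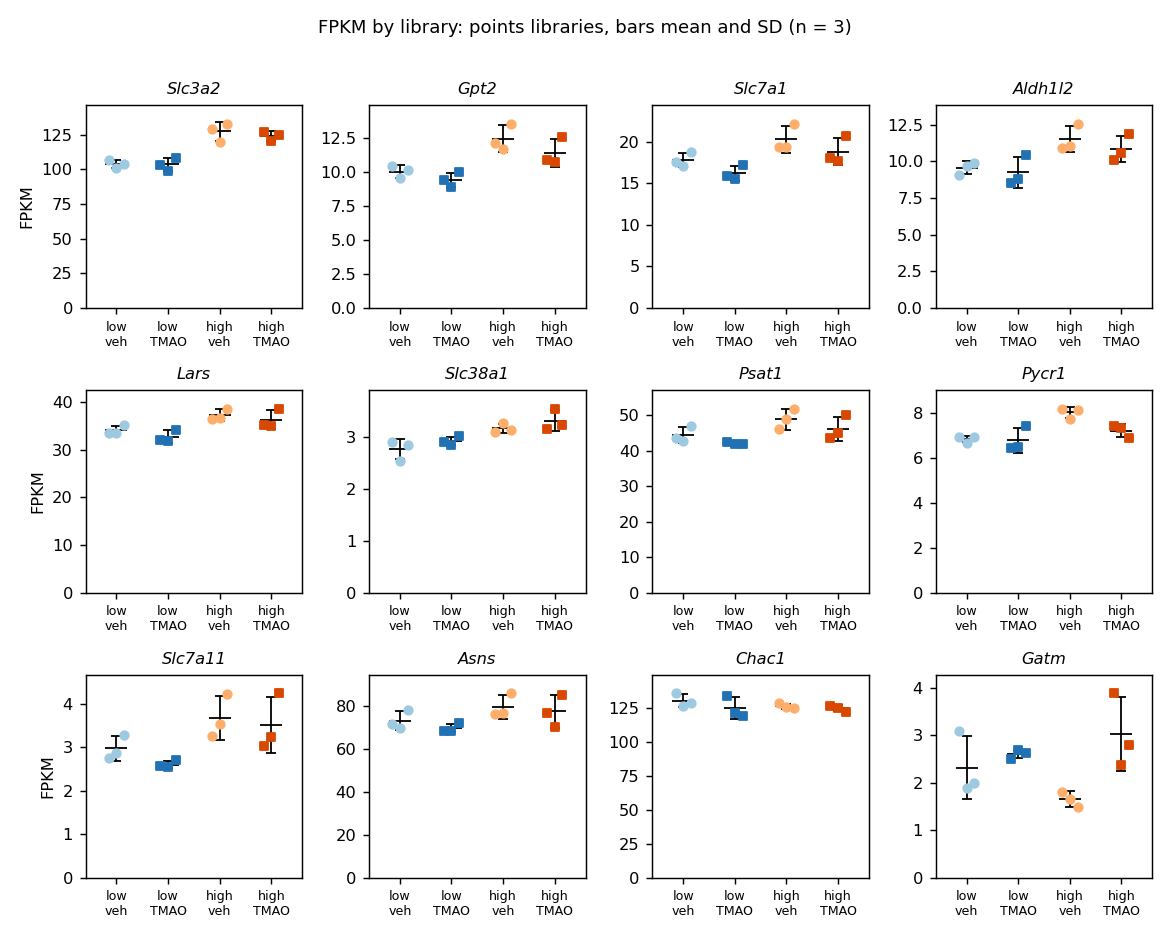
FPKM of the 9 genes that rose in high glucose when averaged over treatments, and of Asns, Chac1 and Gatm, by condition: points are libraries, and bars are the mean and SD of 3 libraries. For Slc3a2, Gpt2 and Slc38a1 all 6 high glucose libraries lie above all 6 low glucose libraries, and Gatm has its widest spread in low glucose with vehicle and high glucose with TMAO.

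Serine and one-carbon enzymes were positive in all 8 cases, with a median log2 fold change of 0.098 averaged over treatments, and 2 of the 8 rose, where 4.13% of all tested genes rose and 50.4% were positive. Psat1, the second enzyme of serine synthesis at chr19:15904678-15947337 on the minus strand, was at 43.6, 42.8 and 47.1 FPKM in low glucose with vehicle, 42.4, 41.8 and 41.9 FPKM in low glucose with TMAO, 46.1, 48.9 and 51.9 FPKM in high glucose with vehicle and 43.6, 44.98 and 50.1 FPKM in high glucose with TMAO. With TMAO the glucose levels stood apart, while with vehicle 1 low glucose library exceeded 1 high glucose library. Averaged over treatments it rose by 0.14 on the log2 scale (SE 0.037, adjusted p = 0.0147, edgeR), and the call was lost without low glucose vehicle replicate 2 (0.0708), high glucose vehicle replicate 3 (0.0846) or high glucose TMAO replicate 3 (0.0775).

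Aldh1l2 encodes the mitochondrial 10-formyltetrahydrofolate dehydrogenase and lies at chr10:83487450-83534140 on the minus strand. It was at 9.08, 9.71 and 9.90 FPKM in low glucose with vehicle, 8.53, 8.77 and 10.5 FPKM in low glucose with TMAO, 10.9, 11.1 and 12.6 FPKM in high glucose with vehicle and 10.1, 10.6 and 11.9 FPKM in high glucose with TMAO. Only the third low glucose library with TMAO reached into the high glucose range. Averaged over treatments, Aldh1l2 rose by 0.25 on the log2 scale (SE 0.054, adjusted p = 0.00494, edgeR). Of its 7503 exon bases, 1056 are shared with D10Wsu102e on the other strand, a gene with a mean count of 1122 against 1458 for Aldh1l2, and without the strand of the reads the source of fragments there cannot be told apart. Mthfd1, the cytosolic trifunctional folate enzyme, was at the low end of the 8 with 0.0022 (95% CI -0.058 to 0.063).

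Proline synthesis was represented by Aldh18a1 and Pycr1, its first and last enzymes. Pycr1, at chr11:120635712-120643769 on the minus strand, was at 6.93, 6.67 and 6.92 FPKM in low glucose with vehicle and 8.20, 7.75 and 8.14 FPKM in high glucose with vehicle, without overlap. With TMAO it was at 6.47, 6.49 and 7.44 FPKM in low glucose and 7.42, 7.35 and 6.89 FPKM in high glucose, where the third low glucose library was the highest of the 6. The averaged log2 fold change was 0.16 (SE 0.049, adjusted p = 0.0369, edgeR), and 0.23 (95% CI 0.092 to 0.37, adjusted p = 0.06) with vehicle alone. This was the least stable call of the 9: it was lost with any of 9 single libraries left out (adjusted p between 0.0572 and 0.101), with the Wald test of DESeq2 (0.0657) and with no filter on low counts (0.0631).

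Asns, the asparagine synthetase and a textbook ATF4 target, did not pass the test, and was singled out after its values were seen. It was at 71.8, 69.7 and 78.1 FPKM in low glucose with vehicle, 68.5, 68.5 and 71.9 FPKM in low glucose with TMAO, 76.1, 76.6 and 85.9 FPKM in high glucose with vehicle and 76.8, 70.3 and 85.2 FPKM in high glucose with TMAO. The ranges overlapped within both treatments. The averaged log2 fold change was 0.14 (95% CI 0.046 to 0.23, adjusted p = 0.0563, edgeR), and both the Wald test of DESeq2 (0.0389) and the fit with no filter on low counts (0.00602) put it past the threshold. Chac1 did not pass the test either. It was at 136, 127 and 129 FPKM in low glucose with vehicle, 134, 122 and 119 FPKM in low glucose with TMAO, 128, 126 and 125 FPKM in high glucose with vehicle and 127, 125 and 122 FPKM in high glucose with TMAO. The 6 high glucose values lay within the range of the 6 low glucose values, and the averaged log2 fold change was -0.022 (95% CI -0.0896 to 0.045).

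Of the 20 tRNA synthetases, 1 rose and 0 fell when averaged over treatments, where 4.13% and 4.06% of all tested genes did. The log2 fold change was positive for 13 of them, and the median was 0.033. Lars, the leucyl-tRNA synthetase, at chr18:42202350-42262122 on the minus strand, was the one that rose. It was at 33.4, 33.6 and 35.2 FPKM in low glucose with vehicle, 32.1, 31.9 and 34.3 FPKM in low glucose with TMAO, 36.4, 36.7 and 38.7 FPKM in high glucose with vehicle and 35.2, 35.1 and 38.6 FPKM in high glucose with TMAO. The glucose levels stood apart within each treatment. The log2 fold change was 0.14 (SE 0.035, adjusted p = 0.00859, edgeR), and it kept its call without each of the 12 libraries in turn. With no filter on low counts Iars (0.013) and Cars (0.0347), the isoleucyl- and cysteinyl-tRNA synthetases, passed as well.

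**Figure D3:**
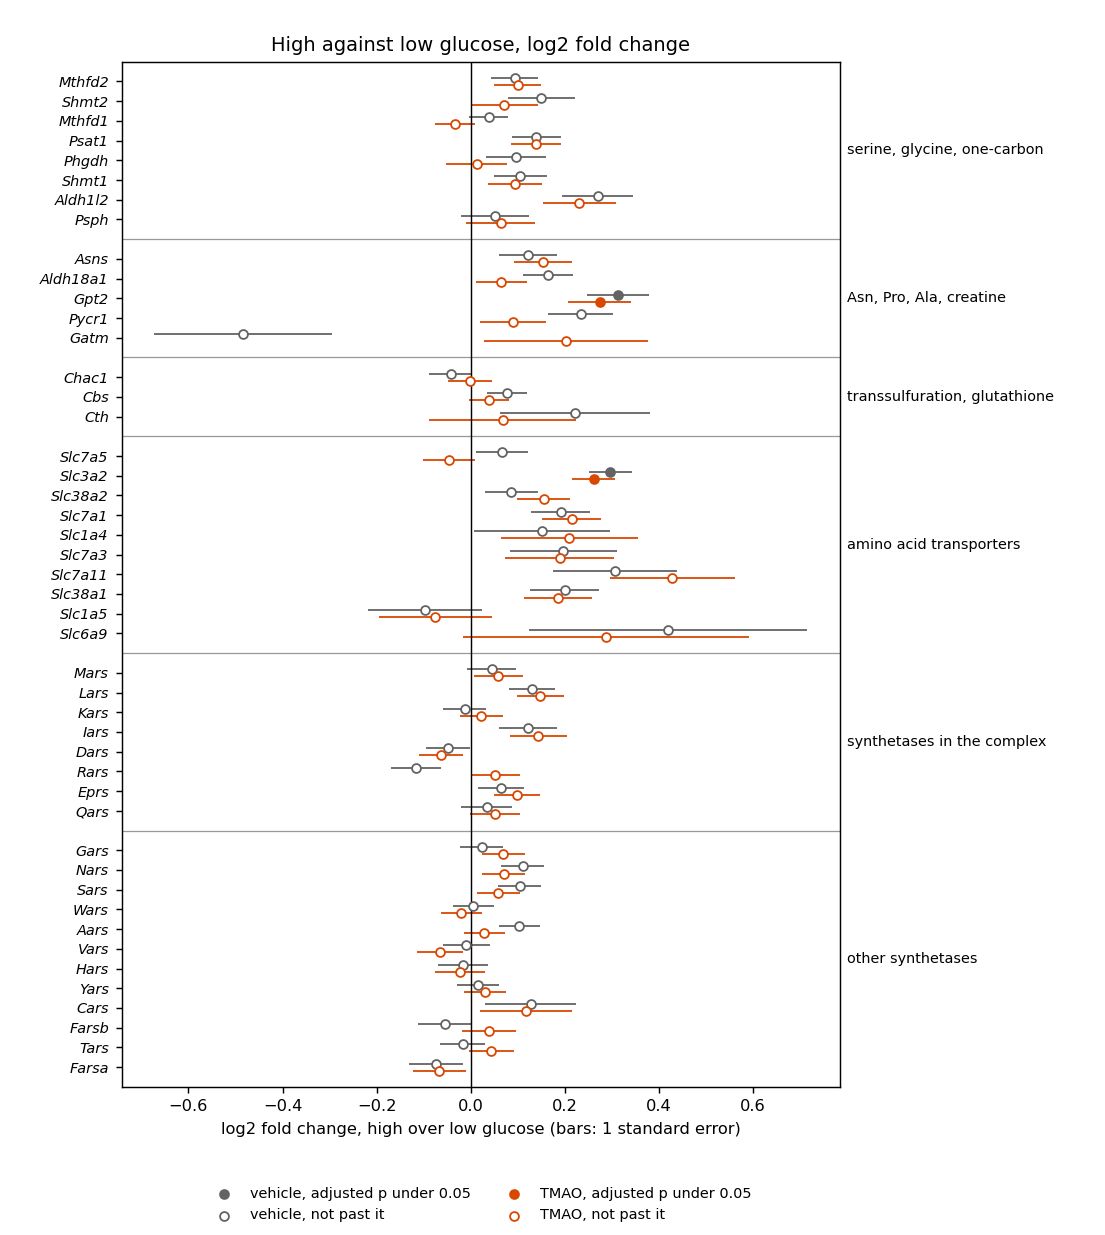
log2 fold change of high over low glucose for the 46 genes with vehicle (grey) and TMAO (orange), with bars of 1 standard error and filled points at an adjusted p under 0.05. Slc3a2 and Gpt2 are filled in both treatments, the transporters and serine enzymes lie mostly to the right of 0, and the synthetases scatter closer to it.

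Counted without a test, the 3 high glucose libraries were all above the 3 low glucose libraries for 14 of the 46 genes with vehicle and all below for 2, where 9.08% and 9.77% of all tested genes were so placed. With TMAO these counts were 9 and 1, against 8.83% and 9.73%. Over both treatments together, the 6 high glucose libraries were above the 6 low glucose libraries for 3 genes, Slc3a2, Gpt2 and Slc38a1, and below for 0, against 2.59% and 2.42%.

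The glucose responses of genes with and without the response element covered overlapping ranges, and the difference was not tested. The 10 genes whose promoter held TGATGNAA had a median averaged log2 fold change of 0.099, and 2 of them, Pycr1 and Slc7a11, rose. The 22 genes with a promoter window but without the letters had a median of 0.081 and 4 that rose, and the 14 genes with no matched window a median of 0.0704 and 3 that rose. Of all tested genes 4.13% rose, and their median was 0.0011. The 10 ran from Chac1 at -0.022 to Slc7a11 at 0.37, and the lowest of the 46 was Gatm at -0.14, among the 22.

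TMAO against vehicle was compared at each glucose level and moved none of the 46 genes past the threshold. In low glucose 0 of 46 were called by edgeR, where 0.00616% of all tested genes rose, and 1 of the 46 had an unadjusted p under 0.05 (2.17%, against 2.2% of all tested genes). In high glucose 0 of 46 were called, where 0% of all tested genes were called, and 7 had an unadjusted p under 0.05 (15.2%, against 5.35%). Averaged over glucose levels 0 of 46 were called, as were 0% of all tested genes, and again 7 had an unadjusted p under 0.05 (15.2%, against 3.62%). By the Wald test of DESeq2 the counts of called members were 0, 1 and 0, the 1 being Gatm in high glucose. The shares above are those of edgeR, and the share of all genes called by the Wald test is not given.

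The log2 fold changes were mostly below 0. In low glucose 34 of the 46 were negative with a median of -0.047, and in high glucose 31 with a median of -0.043, where the medians of all tested genes were 0.0011 and 0.0004. The 2 comparisons share no library: 28 genes were negative in both, 9 positive in both and 9 of opposite sign, the same sign in 80.4% against 48.9% of all tested genes. Because the 46 genes varied together between libraries (median pair correlation 0.306 after removing condition means), these signs are not independent of each other. Transporters had medians of -0.11 in low and -0.0896 in high glucose, and serine and one-carbon enzymes of -0.053 and -0.071. The synthetases were near 0, with medians of -0.0185 and 0.0064. No gene of these groups passed the test.

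Gatm had the lowest p of the 46 in high glucose. This enzyme, glycine amidinotransferase, lies at chr2:122594467-122611303 on the minus strand and was measured with few fragments, a mean count of 136. It was at 1.81, 1.67 and 1.48 FPKM in high glucose with vehicle and 3.88, 2.38 and 2.802 FPKM with TMAO, without overlap. In low glucose the values were 3.08, 1.88 and 2 FPKM with vehicle and 2.51, 2.68 and 2.63 FPKM with TMAO, where the first vehicle library exceeded all TMAO libraries. The log2 fold change in high glucose was 0.85 (SE 0.18, 95% CI 0.47 to 1.24), with an unadjusted p of 0.000161 and an adjusted p of 0.796 from edgeR. The adjusted p was 0.0405 by the Wald test of DESeq2 and 1.06e-05 with no filter on low counts, which put Gatm past the threshold, and no other alternative did. Averaged over glucose levels the log2 fold change was 0.51 (SE 0.13, adjusted p = 0.921 by edgeR and 0.000845 with no filter on low counts), and the test of whether the TMAO difference depended on glucose gave 0.69 (95% CI 0.15 to 1.22, unadjusted p 0.0148, adjusted p = 1, edgeR). Between glucose levels, the 3 high glucose values with vehicle all lay below the 3 low glucose values, with a log2 fold change of -0.48 (95% CI -0.88 to -0.089, adjusted p = 0.235, edgeR, and 0.0318 with no filter on low counts), while with TMAO it was 0.20 (95% CI -0.16 to 0.56) and the ranges overlapped. Gatm also had a high within-condition coefficient of variation, 19.9%, second among the 46 to the 27.9% of Slc6a9.

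The other genes with the lowest p in the TMAO comparisons differed less in size. Aldh18a1, which makes the proline and ornithine precursor, was at 38.5, 36.8 and 41.5 FPKM in high glucose with vehicle and 34.3, 34.5 and 36.7 FPKM with TMAO, just apart. Its low glucose values were 35.0, 32.9 and 36.4 FPKM with vehicle and 32.8, 32.0 and 36.1 FPKM with TMAO, which overlapped. The log2 fold change in high glucose was -0.15 (95% CI -0.26 to -0.037, unadjusted p 0.0106, adjusted p = 0.91, edgeR), and -0.097 (95% CI -0.17 to -0.019, adjusted p = 1) averaged over glucose levels.

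Rars, the arginyl-tRNA synthetase, went the other way. It was at 19.0, 19.9 and 20.1 FPKM in high glucose with vehicle and 22.04, 21.2 and 21.6 FPKM with TMAO, without overlap, while in low glucose 21.96, 20.6 and 21.5 FPKM with vehicle overlapped 21.7, 20.9 and 19.9 FPKM with TMAO. The log2 fold change in high glucose was 0.14 (95% CI 0.029 to 0.24, adjusted p = 0.91, edgeR), and the dependence on glucose was 0.17 (95% CI 0.017 to 0.32, adjusted p = 1).

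In low glucose the genes with the lowest p were Slc7a1, Slc38a2 and Psat1. Slc7a1 had a log2 fold change of -0.13 (95% CI -0.26 to -0.0032, unadjusted p 0.0451, adjusted p = 1, edgeR). Slc38a2 was at 74.0, 78.3 and 85.3 FPKM with vehicle and 71.4, 73.6 and 77.2 FPKM with TMAO, which overlapped, and at 79.1, 82.3 and 90.5 FPKM and 79.8, 78.8 and 88.6 FPKM in high glucose. Its log2 fold change in low glucose was -0.0956 (95% CI -0.21 to 0.023), and that of Psat1 was -0.082 (95% CI -0.19 to 0.026). For Slc3a2 and Gpt2, which rose with glucose under both treatments, the low glucose values with vehicle and TMAO overlapped.

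**Figure D4:**
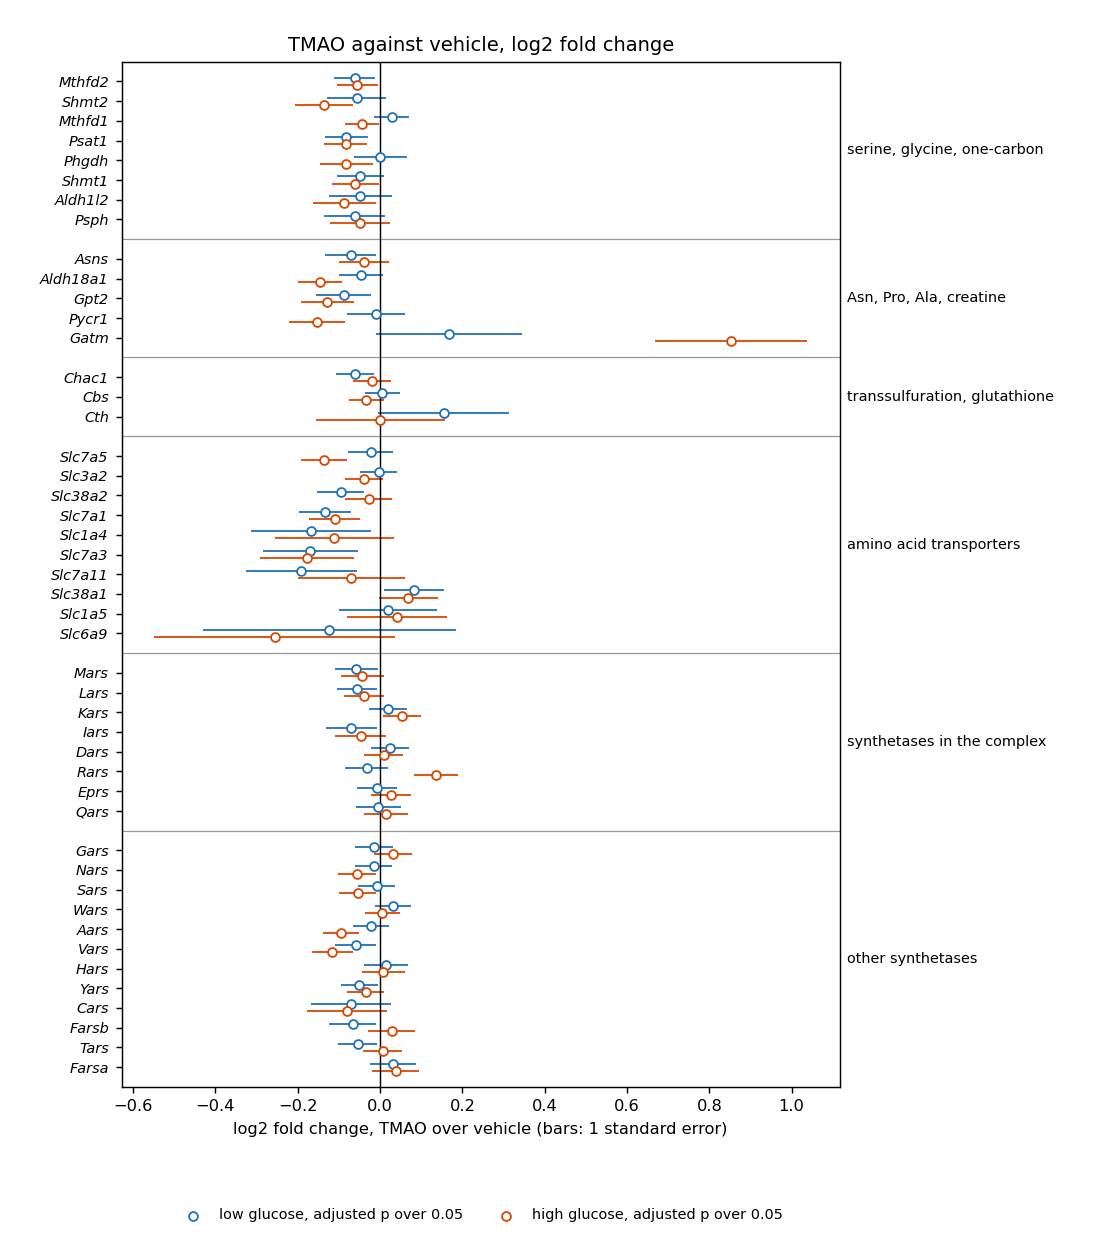
log2 fold change of TMAO over vehicle for the 46 genes in low glucose (blue) and high glucose (orange), with bars of 1 standard error; every point is open because no adjusted p was under 0.05. Most points lie slightly left of 0, and Gatm in high glucose stands alone at 0.85.

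No gene of the 46 passed the test of whether its glucose response differed between TMAO and vehicle. In the interaction test of edgeR, 0 of 46 were called, where 0% of all tested genes were called and the lowest adjusted p of all was 0.188. At an unadjusted p under 0.05 there were 2 of 46, Gatm and Rars (4.35%, against 3.36% of all tested genes), and the DESeq2 Wald test called 0. For Pycr1, next by p, the response was smaller with TMAO by 0.14 on the log2 scale, with a 95% CI of -0.34 to 0.057 for the difference. The ranges of TMAO and vehicle did not overlap in low glucose for 1 gene upward and 2 downward, against 3.15% and 3.19% of all tested genes, and in high glucose for 2 upward and 4 downward, against 5.47% and 5.68%. Pooled over both glucose levels they overlapped for all 46, as for all but 0.0863% upward and 0.0493% downward of all tested genes.

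Within each condition the median of the 46 genes moved with the library. In each of the 4 conditions the library numbered 3 had the highest median deviation of the 46 genes from the condition mean (0.036, 0.0595, 0.068 and 0.044 on the log2 scale for low glucose vehicle, low glucose TMAO, high glucose vehicle and high glucose TMAO) and the library numbered 2 the lowest (-0.0396, -0.041, -0.0385 and -0.042). For all tested genes the medians stayed between -0.004 and 0.0051. In the libraries numbered 3, between 24 and 32 of the 46 genes were at their highest of the condition, against 31.3% to 35.5% of all tested genes. The synthetases in the complex did not follow in low glucose with TMAO, where their median in the library numbered 3 was -0.0121. Nor did the 3 genes of transsulfuration and glutathione breakdown, whose median in that library was below 0 in the other 3 conditions (-0.014, -0.0046 and -0.0293 for low glucose vehicle, high glucose vehicle and high glucose TMAO). The totals of these libraries were the lowest of their condition in all but high glucose with TMAO. The labels do not say that a number marks a shared day or batch, and the part of these deviations in the glucose and TMAO results was not tested beyond the fits with a library left out or with the replicate number as a term.

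**Figure D5:**
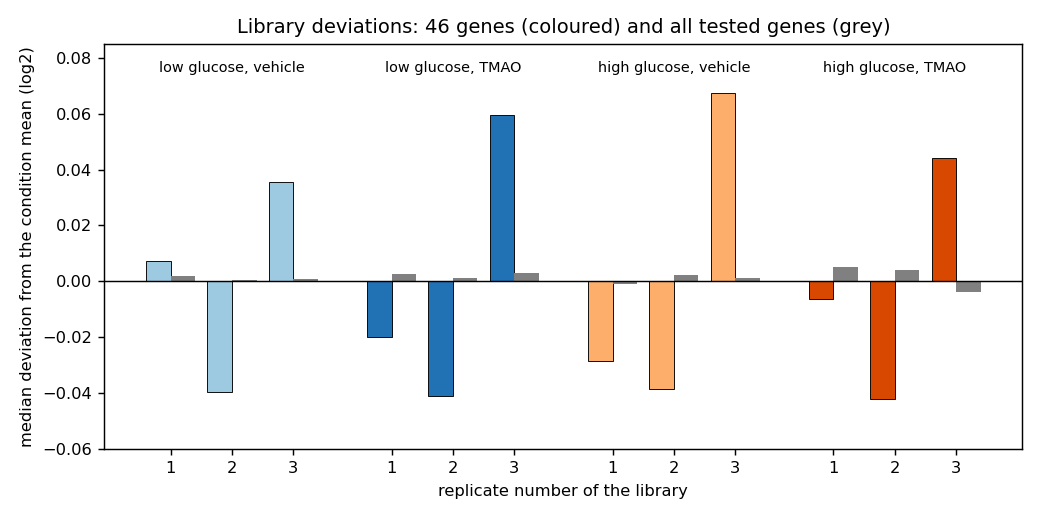
Median deviation (log2) from the condition mean for each of the 12 libraries, over the 46 genes (coloured by condition) and over all tested genes (grey). The library numbered 3 is highest and the library numbered 2 lowest in all 4 conditions, with all tested genes within 0.0051 of 0.

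Described over the 12 libraries after removing the condition means, the 1035 pairs of the 46 genes had a median Pearson correlation of 0.306, and 72.2% were positive, against a median of 0 for the 46 genes with all tested genes. The points share library and depth, and genes are not independent. The 28 pairs of serine and one-carbon enzymes were all positive with a median of 0.581, and the 45 pairs of transporters had a median of 0.38. Synthetases in the complex showed a median of -0.064. By gene, Aldh18a1 (0.683), Mars (0.681), Slc1a4 (0.659) and Slc7a1 (0.655) had the highest median correlation with the other members, and Wars (-0.432), Hars (-0.311), Kars (-0.216) and Chac1 (-0.192) the lowest.

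Related genes of the same pathways were counted on 5 lists in the glucose comparison averaged over treatments, for which 4.13% of all tested genes rose and 4.06% fell. Of 24 tested genes of the integrated stress response, 4 rose, 1 fell, and the median log2 fold change was 0.097. Those that rose were Cebpb, a C/EBP factor (0.52, SE 0.057, adjusted p = 6.35e-08, edgeR), Ppp1r15a, the phosphatase subunit that reverses eIF2alpha phosphorylation (0.49, SE 0.046, adjusted p = 2.51e-09), Atf3, a stress-induced transcription factor (0.39, SE 0.072, adjusted p = 0.00032), and Vldlr, a lipoprotein receptor (0.38, SE 0.069, adjusted p = 0.00258). Ddit3 (CHOP), a partner and target of ATF4, fell by 0.19 (SE 0.034, adjusted p = 0.000307), from 74.4 to 78.9 FPKM in the 6 low glucose libraries to 63.1 to 70.1 FPKM in the 6 high glucose libraries. Ddit3 and the member gene Mars overlap on opposite strands by 68 exon bases.

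Of 22 tested other amino acid transporters, 3 rose and 1 fell: Slc38a4 (0.18), Slc36a4 (0.13) and Slc6a17 (0.11) rose and Slc43a2, a leucine carrier, fell (-0.11). Their median was 0.062. The 20 mitochondrial synthetases and complex scaffold genes had a median of -0.0085, and the mitochondrial prolyl- and tyrosyl-tRNA synthetases Pars2 (-0.31) and Yars2 (-0.15) fell. Among 28 genes of amino acid sensing by mTORC1, 0 rose and 2 fell, the leucine sensor Sesn1 (-0.26) and Wdr24, a GATOR2 subunit (-0.16), with a median of 0.0044. The 25 tested other amino acid and one-carbon enzymes had a median of -0.0025, with 12 positive. Among them Odc1, the rate-limiting enzyme of polyamine synthesis (0.48), and the glutaminase Gls2 (0.27) rose, and 0 fell. In the TMAO comparisons and the interaction test, 0 genes of these 5 lists were called by edgeR.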

How the data were processed

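RNA-seq was analysed for 12 MIN6 libraries, 3 for each of 4 conditions, grouped by the sample labels. The authors deposited a table of counts (fragments counted per gene, not normalized) and a table of FPKM values, fragments scaled to gene length and library total. The submitters' processing notes name HISAT2 2.0.5, featureCounts 1.5.0-p3 and DESeq2 1.16.1, and the build mm10. Libraries were made by poly-T selection with a kit that does not mark strand, so overlapping genes on opposite strands cannot be separated; 12 of the 46 genes have an exon overlapped in that way in GENCODE M21, and for 8 of them the overlapping gene had over 10% of their mean count.

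The 46 genes, their role groups, the 5 related lists and the promoter motifs were chosen with earlier results of these data known. Values in every library were given for members called in any comparison, for the 3 members with the lowest unadjusted p in each comparison, and, as ranges, for the 5 highest and 5 lowest in mean FPKM. Tests on counts used edgeR 4.0.16 in R 4.3.3 (filterByExpr by condition, TMM, robust quasi-likelihood F test on 4 condition means, all 12 libraries). Fold changes are log2 and unshrunken; the SE is the log2 fold change divided by the square root of F, and intervals are 95%. The 7 comparisons were glucose within each treatment, TMAO within each glucose level, their interaction and both averages. A gene was called past an adjusted p of 0.05, Benjamini-Hochberg over the 16222 tested genes, and no p was adjusted over the 46 alone. The steps were run on simulated counts whose planted changes were larger than the glucose changes called among the 46 genes. How well changes of that smaller size are recovered was not tested. Alternatives were DESeq2 size factors, upper-quartile factors, limma 3.58.1 on log2(FPKM + 1) and log2(FPKM + 0.1) for genes with a mean of at least 0.1 FPKM, a replicate block, the 6 compared libraries alone, the DESeq2 1.42.0 Wald test, dropping the count filter or asking for 10 counts in all libraries, and omission of each library. With 1 library left out, the fit pools the spread over all conditions.

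Tested lists also included markers of beta, other islet, exocrine, blood and vessel, and fibroblast cells. Of the list symbols, 5 matched no row, and genes with low counts were not tested. For the list of other amino acid and one-carbon enzymes, 1 result is not reported here. Coordinates are those of the tables; 41 of the 46 genes have the same coordinates in GENCODE M21. Promoter sequences are from RefSeq (GRCm38.p6). Figures were drawn with matplotlib in Python. All per-library columns were used.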

Additional observations from a re-analysis of the deposited data

How the results depend on the processing

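Genes that were called, or had one of the 3 lowest p of the 46, were recomputed under each alternative in that comparison. None of these values changed direction: 428 kept their side of the threshold, 41 fell short of it and 11 passed it. Chac1, at -0.0016 for glucose with TMAO, was at 0.001 with upper-quartile factors. Other scaling (DESeq2 size factors, upper-quartile factors) and the filter of at least 10 counts in every library left the number of called members within 1.5 times of the values given above. For glucose with vehicle, where 2 members were called, the count was 6 when low counts were not filtered (5 higher and Gatm lower), 5 when fitted on the 6 compared libraries alone and 1 with limma on either FPKM scale. For glucose with TMAO, also 2, it was 5 with no filter and 1 with limma on either scale. For glucose averaged over treatments, 9 members, limma gave 4 on either scale. Of 19549 genes, limma on log2(FPKM + 1) called 226 higher and 118 lower with vehicle, 216 and 104 with TMAO, and 492 and 440 averaged. For the fits with no filter, on 6 libraries, by the Wald test or with a library left out, the share of all genes called is not given. With no filter, 1 member was called for TMAO at high glucose and 1 for TMAO averaged over glucose levels, and the Wald test of DESeq2 called 1 for TMAO at high glucose, in each case Gatm.

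With 1 library left out, the count for glucose with vehicle was 1 to 2, and 1 came without low glucose vehicle replicate 2 or high glucose vehicle replicate 3. For glucose with TMAO it was 1 to 4: 1 without low glucose TMAO replicate 1 or 2 or high glucose TMAO replicate 3, and 4 without low glucose TMAO replicate 3. For glucose averaged over treatments it was 5 to 16, the lowest without low glucose vehicle replicate 2 and the highest without low glucose TMAO replicate 3. It was 0 throughout for the TMAO comparisons and the interaction. In the averaged glucose comparison, Slc7a11 lost its call without low glucose vehicle replicate 1 or 2, any of the 3 low glucose TMAO libraries or high glucose vehicle replicate 2. Pycr1 lost its call without any library other than low glucose TMAO replicate 3, high glucose vehicle replicate 2 and high glucose TMAO replicate 3.

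The fit with a replicate block called 8 members for glucose with vehicle, 10 for glucose with TMAO, 19 for glucose averaged over treatments and 0 for the TMAO comparisons and the interaction. Of all 16222 tested genes that fit called 717, 783 and 1678 in the 3 glucose comparisons. The 19 were the 9 given above and Asns (adjusted p = 0.00166, edgeR), Slc38a2 (0.00185), Slc1a4 (0.000343), Slc6a9 (0.0365), Shmt2, Mthfd2, Aldh18a1, Iars, Cars and Nars. No source used here says that libraries of one number share more than it. Of 12 same-number correlations of deviations over all tested genes, 2 were over 0.1 (range -0.038 to 0.213), and over the 46 genes 9 were (range -0.166 to 0.634), although 10 of 12 libraries correlated best with one of their own number. The cause of these changes was not tested. Members with few fragments, such as Gatm and Slc6a9, were measured with the widest intervals.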
